A study of Mus musculus with 3 samples.

Results

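The immunoglobulin isotypes and their transport across the mucosa were followed in 9 genes through 3 single-cell RNA libraries of mouse nasal mucosa. They are the heavy chain constant genes Igha, Ighm, Ighd, Ighg1 and Ighe, the kappa light chain constant gene Igkc, the joining chain gene Jchain, the plasma cell chaperone gene Mzb1 and the polymeric immunoglobulin receptor gene Pigr. They were chosen by symbol, and all 9 were among the 55357 genes of the files, Igha as ENSMUSG00000095079, Ighm as ENSMUSG00000076617, Ighd as ENSMUSG00000104213, Ighg1 as ENSMUSG00000076614, Ighe as ENSMUSG00000087642, Igkc as ENSMUSG00000076609, Jchain as ENSMUSG00000067149, Mzb1 as ENSMUSG00000024353 and Pigr as ENSMUSG00000026417. The papain with lonidamine library came from C57BL/6 mice given 20 µg papain in the nose and 10 mg/kg lonidamine by the intragastric route. The papain library came from mice given 20 µg papain in the nose and PBS by the intragastric route, and the PBS library from mice given PBS in the nose. Papain is a plant cysteine protease used to provoke allergic airway inflammation, here as a model of eosinophilic chronic sinusitis, and lonidamine is an inhibitor of energy metabolism in cells. The genotype label reads C57BL/6J in every group, the sexes were in equal number by the design text, and the number of mice and their age are not given in the sources used here. All mice of a group were pooled into 1 library, so that no difference below has a replicate check and no p-value is given. The intervals cover counting error only.

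IgA is the main antibody that plasma cells in the airway and gut lining release for export. In plasma cells the joining chain links IgA or IgM into polymers, and Pigr on the basal side of epithelial and gland cells takes these polymers up, carries them through the cell and releases them at the surface with a piece of the receptor attached. IgM and IgD are the receptors of B cells that have not yet switched class, and IgE and IgG1 are the switched classes known for allergic responses in mice. Mzb1, in textbook accounts, helps antibody assembly in the endoplasmic reticulum of plasma cells.

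The papain with lonidamine, papain and PBS libraries held 12598, 11071 and 9740 barcodes with 89164040, 86197965 and 82399462 UMIs (molecules counted once by their tag). After removal of barcodes of low quality and of 262, 188 and 137 called doublets, 11887, 10524 and 9378 cells were kept, with medians of 5823, 6547 and 7352 UMIs. The cells formed 38 clusters, made without the 9 members and without any other immunoglobulin gene, and 30 of them were named from markers; olfactory neurons, sustentacular and gland cells were among them, as the tissue label implies. A label names the papain library after fibroblasts, but its title and treatment give papain, and 504 of its 10524 kept cells were fibroblast-like. Of the cells whose sex could be called from Xist and Y-linked genes, 83.1% were female in the papain with lonidamine library, 73.2% in the papain library and 56.8% in the PBS library. Nuclear 18S ribosomal RNA held 3.5%, 3.65% and 0.886% of the UMIs. The libraries of papain with lonidamine and papain shared 36 barcode sequences, those of papain with lonidamine and PBS 22, and those of papain and PBS 38.

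Over whole libraries Pigr stood apart from the other members. Pigr had 40343 UMIs in the papain with lonidamine library, 43566 in the papain library and 6477 in the PBS library, or 452.5, 505.4 and 78.6 CPM (UMIs scaled to an equal total for every library). The papain level was 6.43 times the PBS level, a log2 ratio of 2.69 with a 95% interval of 2.65 to 2.72. Papain with lonidamine over papain had a log2 ratio of -0.16 (-0.18 to -0.14), and papain with lonidamine over PBS 2.53 (2.49 to 2.56). A library sum cannot tell more cells that carry a gene from more RNA in each of them, so both are separated by cell type further on.

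Igha, the constant region of IgA, had 22703, 11499 and 9506 UMIs in the papain with lonidamine, papain and PBS libraries, at 254.6, 133.4 and 115.4 CPM. Its log2 ratio was 0.93 (0.90 to 0.97) for papain with lonidamine over papain and 0.21 (0.17 to 0.25) for papain over PBS. Igkc, the light chain of most mouse antibodies, had 37709, 29459 and 19469 UMIs, at 422.9, 341.8 and 236.3 CPM. Jchain had 6415, 4033 and 3874 UMIs, at 71.95, 46.79 and 47.01 CPM. All 3 genes were highest with lonidamine, and Jchain had nearly the same level in the papain and PBS libraries.

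Ighm, the IgM heavy chain, had 2486, 1913 and 1133 UMIs in the papain with lonidamine, papain and PBS libraries, at 27.88, 22.19 and 13.75 CPM. Ighd, the IgD heavy chain, had 174, 116 and 95 UMIs, at 1.951, 1.346 and 1.153 CPM. Ighm thus ran in the same order in the libraries as Igha and Igkc, with a log2 ratio of 0.69 (0.58 to 0.80) for papain over PBS and of 0.33 (0.24 to 0.42) for papain with lonidamine over papain. For Ighd the interval of papain over PBS took in 0 (0.22, -0.18 to 0.63).

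The classes known for allergic responses were nearly absent. Ighg1 had 5, 3 and 0 UMIs in the papain with lonidamine, papain and PBS libraries, and Ighe had 6, 0 and 1. At these depths a count of 0 allows up to 0.0348 CPM in the papain library and 0.03641 CPM in the PBS library (3 counts). Mzb1 had 2 UMIs in each library, 6 in 5 barcodes in all. Papain with lonidamine over papain for Ighe, 6 against 0 UMIs, had an interval above 0, but all 6 UMIs lay in 1 barcode. For Ighg1 and Mzb1 no change was detectable.

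A call was made where the CPM ratio, with 0.5 counts added to each gene, passed 2-fold and the gene had at least 20 UMIs in the 2 libraries. Of the 9 members, 6 had enough UMIs in each comparison. For papain over PBS 1 of them was past 2-fold higher, Pigr, and 0 were lower, where 10.3% of all genes tested were higher and 5.94% lower. Papain with lonidamine over papain had 0 members past 2-fold, against 2.89% of all genes higher and 2.09% lower. For papain with lonidamine over PBS 3 were higher (Igha, Ighm and Pigr) and 0 lower, against 12.5% of all genes higher and 7.59% lower. The median log2 ratio of the 6 members was 0.38, 0.43 and 0.93 in these comparisons, and that of all genes tested -0.02, 0.03 and 0.03. Ighm, at 1.02 (0.92 to 1.12), lay at the 2-fold limit itself.

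**Figure D1:**
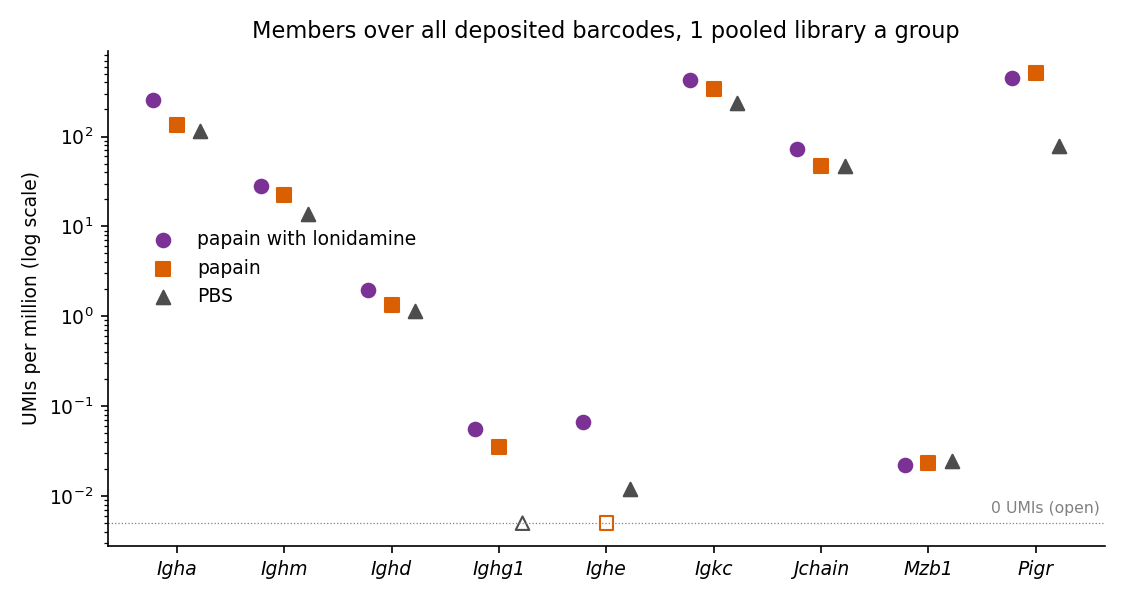
Level in CPM of each of the 9 members (log axis) over all deposited barcodes of the papain with lonidamine, papain and PBS libraries, 1 point for each library and open points for 0 UMIs. Pigr is at 452.5 and 505.4 in the papain with lonidamine and papain libraries against 78.6 with PBS, and Ighg1, Ighe and Mzb1 stay at 6 UMIs or fewer.

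A handful of barcodes carried most of the antibody RNA. The rule for plasma cells, at least 2 Mzb1 UMIs with Jchain at 1% or more of a barcode's UMIs, was met by 0 of 11887 cells with lonidamine, 0 of 10524 with papain and 1 of 9378 with PBS. With so little Mzb1 counted, this rule could not find plasma cells, and its counts of 0 set no limit on their number. The Jchain part alone, used after the Mzb1 counts were seen, was met by 16 cells with lonidamine, 6 with papain and 5 with PBS. Their shares of kept cells were 0.135% (exact Clopper-Pearson 95% interval 0.077% to 0.218%), 0.057% (0.0209% to 0.124%) and 0.0533% (0.0173% to 0.124%). The share with lonidamine was 2.36 times that with papain (0.878 to 7.37), and the papain share was 1.07 times the PBS share (0.272 to 4.43). Both intervals take in 1, so no difference in the number of these cells was detectable.

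The cells above 1% Jchain stood apart from the rest with papain and with PBS, and less so with lonidamine. In the papain with lonidamine library the lowest cells inside had 1.24% and 2.57%, and the highest outside had 0.927% and 0.772%. In the papain library these values were 1.7% and 2.01% inside and 0.208% and 0.192% outside, and in the PBS library 1.13% and 4.88% inside and 0.184% and 0.118% outside. The 2 papain with lonidamine cells just outside had 704 and 1143 Igha UMIs and lay in a sustentacular-like and a fibroblast-like cluster. A PBS barcode with Jchain at 0.118% had 22.8% of its 848 UMIs on immunoglobulin genes, 179 of them on Igkc.

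**Figure D2:**
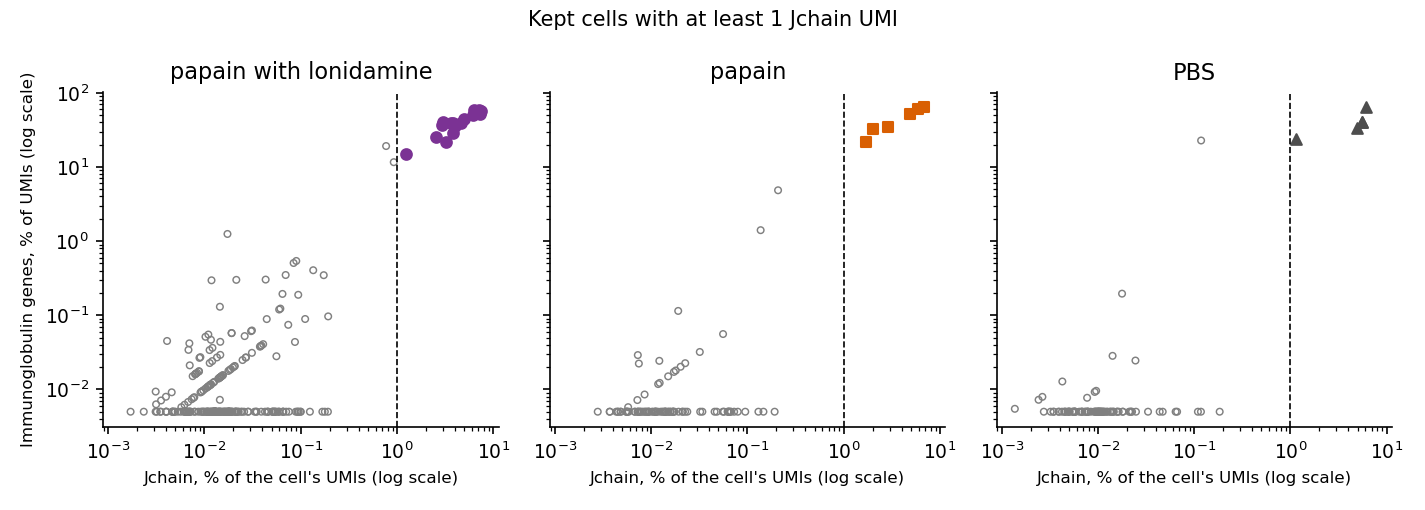
Kept cells with at least 1 Jchain UMI in each library, by the share of their UMIs on Jchain (x, log axis) and on immunoglobulin genes (y, log axis; cells with none lie on the lowest line). Filled points right of the dashed line at 1% are the 16, 6 and 5 cells of the papain with lonidamine, papain and PBS libraries, with 14.9% to 64% of their UMIs on immunoglobulin genes.

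Most of these 27 cells had the genes of plasma cells. In the papain with lonidamine library immunoglobulin genes held 14.9% of a cell's UMIs at the lowest, 39.3% at the median and 58.6% at the highest. In the papain library the values were 21.8%, 43.3% and 63.6%, and in the PBS library 24%, 40.5% and 64%. The 3 groups of cells overlapped over nearly their whole range. Jchain was at a median of 3.95%, 3.9% and 5.5% of UMIs. Of 8 plasma cell markers, at least 5 were detected in 13 of 16, 5 of 6 and 5 of 5 cells.

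Tnfrsf17, the survival receptor BCMA of plasma cells, was detected in 24 of the 27 cells. Xbp1, the factor that expands the secretory machinery, was detected in 25, and the surface proteoglycan gene Sdc1 (CD138) in 21. The rest of the 8 markers were Derl3 in 22, Fkbp11 in 21, Slamf7 in 20, Irf4 in 16 and Prdm1 in 15 cells. Irf4 was lower than in the other cells of the B-like cluster, at 98.68 against 176.8 CPM. Ms4a1 (CD20) and Pax5, which plasma cells switch off, had 0 UMIs in all 27, against 812.6 and 446.6 CPM in the other cells of the B-like cluster. Beside Jchain, the genes outside the immunoglobulin loci with at least 200 UMIs in the 27 cells and the highest ratio to all other kept cells were Slpi, a secreted protease inhibitor, 97.6 times higher at 3571 CPM, Txndc5 at 39.4 times, Edem1 at 34.7 times and Trp53inp1 at 17.4 times. Cd52 followed at 13.3 times, Sec11c at 11.7 times, Ssr4 at 7.33 times, Xbp1 at 6.86 times and Hsp90b1 at 5.56 times. Txndc5, Edem1, Sec11c, Ssr4 and Hsp90b1 act in the folding, checking or import of proteins in the endoplasmic reticulum. Since Jchain chose the cells, these values describe them and are not a test.

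Ccr10, the receptor through which IgA plasma cells follow the epithelial chemokine Ccl28, was detected in 24 of the 27 cells, with 117 UMIs (361 CPM). It had 0 UMIs in the 257 other cells of the B-like cluster at the low depth of those cells, with medians of 1533, 1866 and 2022 UMIs. This limits the share of them with a UMI to 1.17%, not the share that expresses the gene. Ccr9, the receptor that guides cells to the small intestine, had 1 UMI in the 27 cells. Cxcr4, which holds plasma cells in bone marrow, had 2 UMIs in them (6.17 CPM) and 167 in the other B-like cells (259 CPM).

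IgA was the class of nearly all of them. Igha was the leading heavy chain gene, with at least 50% of the heavy chain UMIs and at least 10 UMIs, in 15 of 16 papain with lonidamine cells, 6 of 6 papain cells and 5 of 5 PBS cells. That is 26 of 27, or 96.3% (81% to 99.9%). In these 26 cells Igha held at least 99.5% of the heavy chain UMIs. The remaining cell, in the papain with lonidamine library, had 67 Ighm, 145 Igkc and 21 Jchain UMIs of 548 in all, none of the 8 plasma cell markers, and lay in the cluster of mature olfactory neurons. Since Jchain, the partner of IgA and IgM, chose the cells, the share with Igha does not cover antibody-rich cells low in Jchain. A papain barcode with 361 Ighg2b UMIs, for instance, was left out at 0.208% Jchain.

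In the PBS library the 5 cells had 4408, 1463, 1261, 559 and 1432 Igha UMIs. Papain cells had 683 at the lowest, 1932.5 at the median and 2950 at the highest, and papain with lonidamine cells 0, 1192 and 2395. Of the light chains, lambda (Iglc genes) led in 0 of 16 papain with lonidamine cells, 1 of 6 papain cells and 2 of 5 PBS cells, and kappa in all others. The papain lambda cell had 3022 Iglc UMIs beside 40 of Igkc, and the PBS lambda cells 5077 and 4413 beside 38 and 51. Iglc1, a lambda constant gene, had 145, 3236 and 9781 UMIs in the papain with lonidamine, papain and PBS libraries, and 17.9%, 93.5% and 96.9% of these lay in the cells above 1% Jchain.

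The variable genes differed from cell to cell. A leading Ighv gene could be called in 21 of the 27 cells, and 16 different ones were found. Both lambda cells of the PBS library had Ighv14-2 with Iglv1. In the papain with lonidamine library 2 cells had Ighv1-55 with Igkv8-27, and Ighv8-12 was found in 2 more cells with different kappa genes, Igkv1-110 and Igkv10-96. Variable genes have near-identical copies, so that these assignments depend on how the reads were counted.

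**Figure D3:**
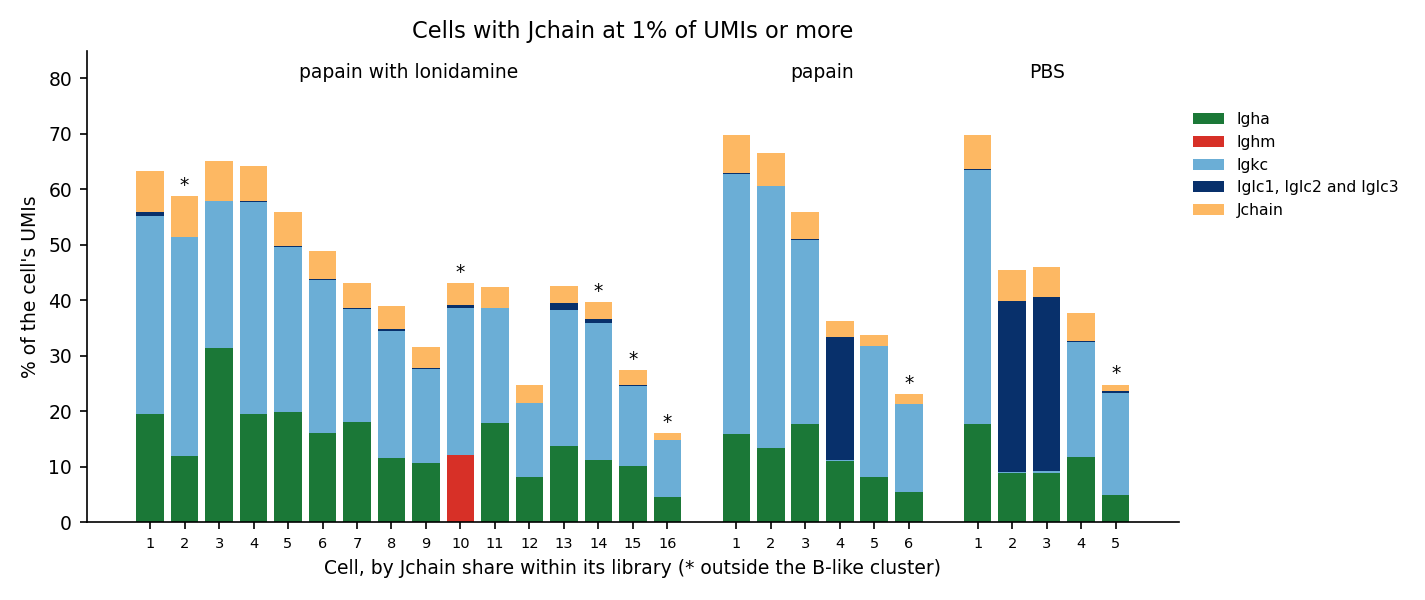
Share of UMIs on Igha, Ighm, Igkc, the Iglc genes and Jchain in each of the 27 cells with Jchain at 1% of UMIs or more, ordered by Jchain within each library; stars mark cells outside the B-like cluster. Igha is the heavy chain in 26 cells, the exception being cell 10 of the papain with lonidamine library, and lambda light chains fill cell 4 with papain and cells 2 and 3 with PBS.

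Not all of these cells clustered with B cells. In the B-like cluster lay 11 of 16 papain with lonidamine cells, 5 of 6 papain cells and 4 of 5 PBS cells, and the other 7 lay in neuronal, progenitor, neutrophil-like, macrophage-like or serous gland-like clusters. Within the B-like cluster the share with lonidamine was 1.95 times that with papain (0.624 to 7.15). By Xist and Y-linked genes 10 cells with lonidamine were female, 2 male and 4 without a call. With papain the numbers were 4, 0 and 2, and with PBS 0, 2 and 3.

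The library sums of Igha, Igkc and Jchain rested on these few cells. Of all Igha UMIs they held 87.4% with lonidamine, 96.2% with papain and 96% with PBS. Of Jchain they held 92.2%, 96.2% and 97.6%, and of Igkc 88.9%, 90.5% and 91.8%. The PBS cell that met the whole rule alone held 4408 Igha, 11413 Igkc and 1528 Jchain UMIs. Without this barcode the log2 ratio of papain over PBS was 1.11 for Igha, 1.81 for Igkc and 0.72 for Jchain, against 0.21, 0.53 and -0.01 with it. Without all 27 cells it was 0.11, 0.74 and 0.68. For papain with lonidamine over papain the ratios without the 27 cells were 2.68 for Igha, 0.54 for Igkc and 1.65 for Jchain, with 1847 of the remaining Igha UMIs in the 2 cells just under 1% Jchain. The same 2 cells held 217 of the remaining Jchain and 1652 of the remaining Igkc UMIs with lonidamine. Igha and Igkc kept the order of the libraries in each of these settings while the size of their ratios moved, and Jchain, level between papain and PBS at first, was higher with papain. Without the 27 cells, 150 Jchain UMIs with papain and 92 with PBS lay outside the B-like cluster. Of these 150, 59 came from 1 barcode in the neuronal progenitor cluster, which also held 839 of the remaining papain Igkc UMIs. Ratios without this barcode were not computed. Pigr kept its ratios without the 27 cells, at 2.69 for papain over PBS and -0.16 for papain with lonidamine over papain.

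Most other barcodes with Igha had a single UMI. Igha was detected in 914, 418 and 371 barcodes of the papain with lonidamine, papain and PBS libraries, and 88.5%, 95.7% and 96% of these held 1 UMI. Mature olfactory neurons, which make no antibody, gave the level of free RNA from broken cells. In them Igha was at 9.74, 5.53 and 4.27 CPM, in 5.85%, 3.72% and 2.96% of cells. Igkc was at 14.2, 7.37 and 4.27 CPM and Jchain at 3.87, 0.983 and 1.12 CPM. The neurons of the 3 libraries had medians of 6660, 6764 and 7238 UMIs. Igha was at a similar level in basal epithelial-like cells, with 10.2, 4.03 and 3.69 CPM.

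The lambda gene Iglc1 in neurons varied between libraries. Neurons had 0.0128, 0.0889 and 0.75 Iglc1 UMIs for each Igha UMI in the papain with lonidamine, papain and PBS libraries, and the cells above 1% Jchain had 0.00131, 0.273 and 1.04. The order of the libraries was the same in both, with PBS highest. The neuron ratios rest on 1, 4 and 57 Iglc1 UMIs. For Igkc the ratio to Igha in neurons was 1.46, 1.33 and 1, and in the cells above 1% Jchain 1.69, 2.41 and 1.96, so that its order was not the same in both.

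Ighm and Ighd lay in another set of cells. The B-like cluster without the cells above 1% Jchain had 123 cells with lonidamine, 86 with papain and 48 with PBS, or 1.03% (0.861% to 1.23%), 0.817% (0.654% to 1.01%) and 0.512% (0.378% to 0.678%) of kept cells. The interval with PBS lay below that with lonidamine, and those of the papain libraries overlapped. Of female kept cells 106 of 7760 with lonidamine, 56 of 5746 with papain and 17 of 3877 with PBS were such B-like cells. Of male ones 1 of 1580, 13 of 2109 and 10 of 2948 were, so the share with lonidamine was highest in female cells only. Of these B-like cells 95.1%, 93% and 97.9% had Ighm, against 0.412%, 0.423% and 0.32% of neurons, and 57.7%, 45.3% and 68.8% had Ighd. Ighm was at 3840, 2965 and 2289 CPM and Ighd at 553.9, 374.1 and 639.8 CPM. Median depth was 1533, 1866 and 2022 UMIs, lower in the papain libraries, as were the Ighd shares. Between the papain libraries the shallower one, with lonidamine, had the higher Ighd share. The part of depth in these shares was not tested. Of these B-like cells 0 with lonidamine, 1 with papain and 0 with PBS had 3 or more Igha UMIs.

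Switched IgG came mostly from single barcodes. Ighg2b had 24, 467 and 3 UMIs in the papain with lonidamine, papain and PBS libraries. Of the 467 with papain, 361 came from 1 barcode of 28366 UMIs in the neuronal progenitor cluster, which also held 101 Ighm, 839 Igkc and 59 Jchain UMIs, and 78 came from a B-like cell. The 6 Ighe UMIs with lonidamine were in 1 IgA cell with 1168 Igha UMIs, and the single Ighe UMI with PBS was in an IgA cell too. The 5 Ighg1 UMIs with lonidamine were in the cell with 704 Igha UMIs just under 1% Jchain. The IgG genes resemble each other, and reads of a constant gene may be split between copies.

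More of the Ighm UMIs lay outside the B-like cluster than in it, namely 55.8%, 60.6% and 75.4% in the papain with lonidamine, papain and PBS libraries. Plasmacytoid dendritic-like cells were highest after B cells, with 1277 and 785.6 CPM in the papain with lonidamine and papain libraries and 801.3 CPM in the 14 such cells with PBS. Macrophage-like cells had 125.1, 112.6 and 42.1 CPM, T-like cells 143.6, 103.4 and 45.92 CPM, monocyte-like cells 187.8, 164 and 101.2 CPM, and dendritic-like cells 115.1, 105 and 78.35 CPM. The neurons had 0.624, 0.614 and 0.45 CPM, so these levels were above free RNA. In macrophage-like cells Ighm was detected in 32%, 34% and 21.5% of cells at medians of 3474, 4449 and 7612 UMIs, and Igkc was at 30.1, 17.4 and 7.142 CPM. B-like cells had 2962.9 CPM of Igkc with lonidamine, 3744.8 with papain and 7275.9 with PBS.

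In the immune clusters with 20 cells Ighm was past 2-fold higher for papain over PBS in 2 of 9 clusters, macrophage-like at 1.42 (1.09 to 1.76) and T-like at 1.15 (0.54 to 1.85), and lower in 1, the neutrophil precursor-like one with 0 against 12 UMIs. In this comparison 7.43% of all gene by cluster pairs of these clusters were higher. Between the papain libraries Ighm was past 2-fold higher with lonidamine in 2 of 11 clusters, against 5.1% of pairs, and all 11 ratios were above 0, at a median of 0.47. Both of these 2 rest on few counts, 24 against 7 UMIs in the group 2 innate lymphoid-like cluster and 71 against 0 in the neutrophil precursor-like one. Of the 11 intervals, those of the neutrophil-like, macrophage-like, dendritic-like and monocyte-like clusters and of the cluster led by Trdc took in 0.

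Pigr was a gene of the surface and gland epithelium. Of the Pigr UMIs in kept cells, 96.9%, 97.4% and 95.9% lay in the 17 epithelial and gland clusters of the papain with lonidamine, papain and PBS libraries, whose joint level was 778.9, 889.4 and 193.9 CPM. Its start site and the bases before it are shown because known inducers of Pigr, interferons, tumour necrosis factor and interleukin 17, act through factors that bind such stretches. The window is from RefSeq, GRCm38.p6, chr1:130826434-130826713, plus strand, with 250 bases before the start of transcription and 30 from it on. Capitals mark the matches to the motifs searched.
Pigr: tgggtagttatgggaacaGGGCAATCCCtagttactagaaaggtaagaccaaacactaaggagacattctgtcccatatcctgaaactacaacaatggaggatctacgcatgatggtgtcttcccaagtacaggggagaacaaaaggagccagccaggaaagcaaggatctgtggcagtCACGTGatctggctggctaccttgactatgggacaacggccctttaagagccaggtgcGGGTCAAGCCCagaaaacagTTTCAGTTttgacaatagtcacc
The E-box CACGTG, bound by USF factors in the human PIGR promoter, was found 71 bases before the start (-71). AANNGAAA, the type bound by interferon regulatory factors, was found at 8 bases after it. GGG and CC with 5 bases of any kind between them, the NF-kB type, was found at -232 and, in overlapping matches, at -13 and -12, and TTC and GAA with 4 bases between them, the STAT type, was not found. Both strands were searched, over 250 bases before and 50 after the start. Of 32851 promoters of that length 7.15% held CACGTG, 23.9% AANNGAAA, 50.8% the NF-kB type and 6.95% the STAT type, so that only the E-box is uncommon among the matches.

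Across the epithelium the level of Pigr differed widely between clusters. In the papain libraries the level was highest in the cluster led by Scgb1b27, Scgb2b27 and Car6, secreted products of nasal glands, with 3153, 3042 and 795.7 CPM in the papain with lonidamine, papain and PBS libraries. This cluster had 42, 51 and 145 cells, and 5 cells held 48.3%, 48.1% and 61.1% of its Pigr UMIs. Secretory and goblet-like cells (Bpifb1, Itln1, Muc5ac), highest with PBS, had 2399, 2497 and 2297 CPM, and the cluster led by Alox12e, Gp2 and Clca1 had 2639, 2314 and 1574 CPM. These 2 had high Pigr in all 3 libraries. The basal epithelial-like cluster led by Nrcam had 19.44, 19.54 and 4.747 CPM, close to the mature olfactory neurons at 12.2, 15.7 and 2.81 CPM.

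Most clusters with low or moderate Pigr under PBS were higher with papain. For papain over PBS 11 of 14 clusters with at least 20 cells in both libraries were past 2-fold higher and 1 lower, at a median log2 ratio of 2.19. Of all gene by cluster pairs in these clusters with at least 20 UMIs, 7.05% were higher and 9.95% lower. For Pigr itself every cluster with 20 cells was counted, whatever its UMIs. The 11 include 2 basal epithelial-like clusters at low levels, those led by Nrcam (19.54 against 4.747 CPM) and by Ifi202b (36.14 against 14.04 CPM). Outside the epithelium Pigr was past 2-fold higher as well, in 16 of 18 clusters, as given further on. Sustentacular-like cells, which support the olfactory neurons, had 907.2, 1327 and 198.2 CPM in the papain with lonidamine, papain and PBS libraries, with a papain over PBS ratio of 2.74 (2.57 to 2.92). The cluster led by Slc22a20, Chil6 and Slc22a2 had 455.2, 535.9 and 24 CPM, a ratio of 4.47 (4.20 to 4.78). The cluster led by Bpifb6, Ptgds and Ces1a had 190.8, 310.7 and 6.924 CPM, the largest ratio of the 14, 5.47 (4.995 to 6.02).

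Several other epithelial clusters did likewise. Ionocyte-like microvillous cells had 301.4, 338.7 and 61.51 CPM in the papain with lonidamine, papain and PBS libraries, and multiciliated-like cells 337.5, 355.4 and 69.06 CPM. Serous gland-like cells had 201.3, 165.2 and 44.35 CPM, and the cluster led by Klk1, a gland duct kallikrein, 197, 149.8 and 15.7 CPM, the PBS level on 2 UMIs in 21 cells. Tuft-like cells had 410, 426.8 and 16.97 CPM, where the PBS level rests on 4 UMIs in 36 cells and 5 cells held 71.7% of the papain UMIs. The clusters past the limit of 2-fold did not include secretory and goblet-like cells, at 0.12 (0.06 to 0.18), or the cluster led by Alox12e, at 0.56 (0.46 to 0.65).

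The share of cells with Pigr moved in the same way. After thinning to 2000 UMIs a cell, Pigr was detected in 38.5%, 57.8% and 15.4% of sustentacular-like cells of the papain with lonidamine, papain and PBS libraries, and in 62.3%, 75.7% and 28.8% before it. In the cluster led by Slc22a20 the thinned shares were 25.2%, 37.4% and 3%, and in ionocyte-like cells 21.3%, 22.4% and 2.19%. In the mature olfactory neurons they were 2.58%, 3.07% and 0.355%. Between 8 and 70 cells were too shallow to thin in each of these epithelial clusters and libraries, and 91 to 241 among the neurons. Among sustentacular-like cells, 61 of 653 with lonidamine, 70 of 506 with papain and 62 of 153 with PBS were left out. Their cluster had medians of 11398, 12864.5 and 3113 UMIs in these libraries.

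The basal epithelial-like cluster led by Lgr6, Col25a1 and Pthlh went the other way, with 52.96, 131.1 and 291.3 CPM in the papain with lonidamine, papain and PBS libraries. Its ratio was -1.15 (-1.29 to -1.01) for papain over PBS and -1.31 (-1.54 to -1.08) for papain with lonidamine over papain. In each library 5 cells held 44.7%, 44.6% and 36.4% of the UMIs, and the thinned shares of cells with Pigr, 7.05%, 8.19% and 10.6%, had overlapping intervals. With finer clusters, with the members left in the clustering, or with doublets left in, 0 clusters were past 2-fold lower for papain over PBS. In cells thinned to 2000 UMIs, with another scaling (TMM) and in male cells 1 cluster was, and in female cells 0 were. The Lgr6 cluster was at -2.55 (-2.98 to -2.17) in male cells and at -0.40 (-0.57 to -0.23) in female cells.

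**Figure D4:**
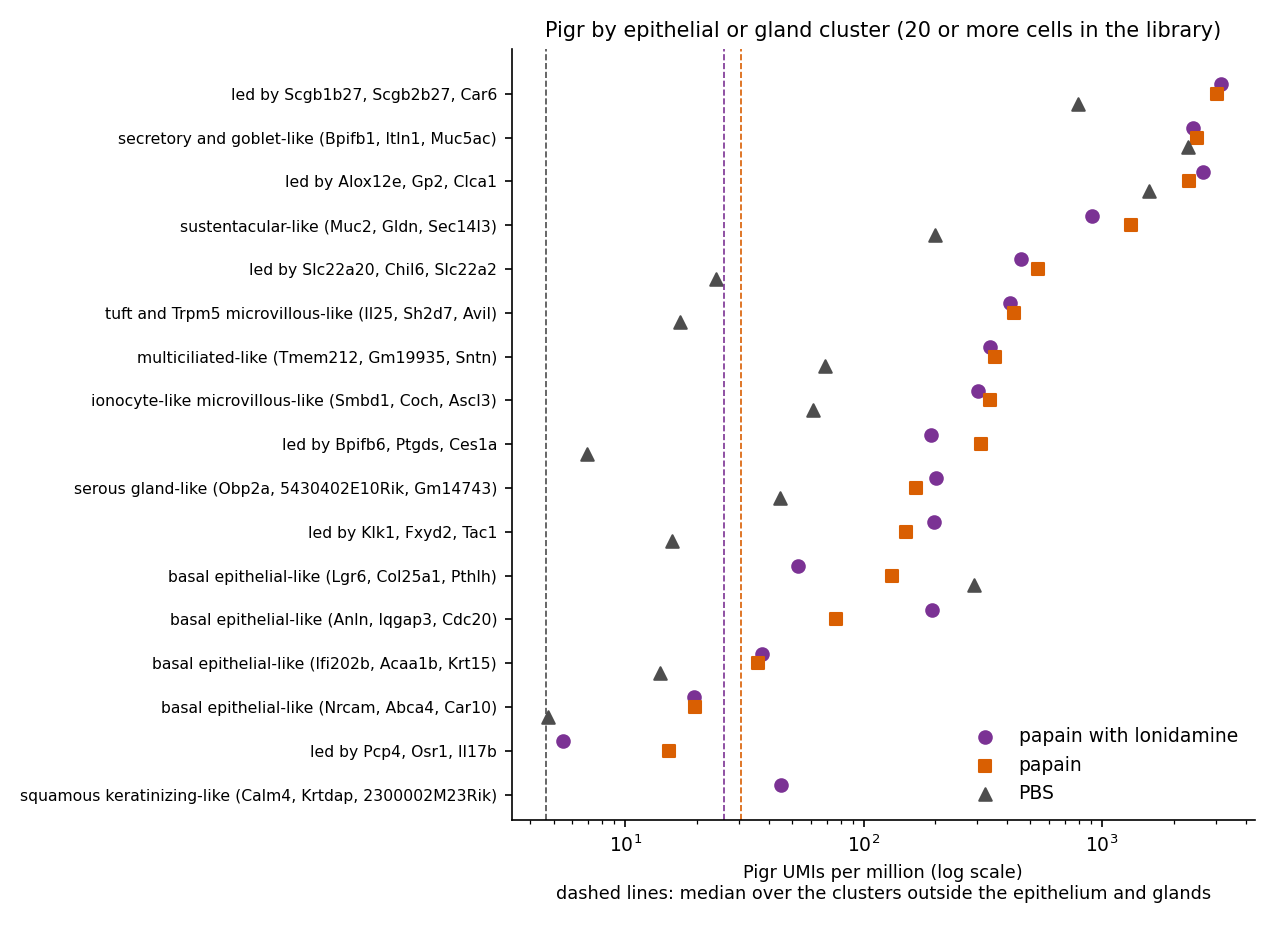
Pigr level in CPM (log axis) in each epithelial or gland cluster with at least 20 cells in the library, for papain with lonidamine, papain and PBS; dashed lines give each library's median over the clusters outside the epithelium and glands. PBS points lie left of the other 2 in all clusters that have all 3 but the Lgr6 cluster, and are near them in the secretory and goblet-like one.

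Pigr outside the epithelium moved with it. The median over the other clusters was 26, 30.6 and 4.63 CPM in the papain with lonidamine, papain and PBS libraries. For papain over PBS 16 of 18 of them were past 2-fold higher, at a median of 2.42. In the immune clusters among them 7.43% of all gene by cluster pairs were higher, and no such share was computed for the rest. The neurons, at 12.2, 15.7 and 2.81 CPM, had a ratio of 2.48 (2.002 to 2.99). The part of this free RNA in the levels of the epithelial clusters was not tested. In the papain library 6 of the 16 epithelial clusters were above the highest level outside the epithelium, 360 CPM in the group 2 innate lymphoid-like cluster, where 140 of the 147 UMIs came from 1 cell. With PBS 8 of 14 epithelial clusters were above the highest outside, 36.3 CPM, where 95 of the 103 UMIs came from 1 monocyte-like cell.

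The makeup of the epithelium differed between libraries as well. Secretory and goblet-like cells were 4.62%, 5.67% and 2.38% of epithelial and gland cells with lonidamine, papain and PBS, and the cluster led by Alox12e 9.49%, 10.7% and 1.25%. With each library's cell mix held in turn over the 14 clusters, the papain levels gave 908 CPM at the papain mix and 477 CPM at the PBS mix. The PBS levels gave 506 CPM at the papain mix and 195 CPM at the PBS mix. A change of levels alone, at the PBS mix, therefore gave 477 against 195 CPM, and a change of mix alone, at the PBS levels, gave 506 against 195 CPM. The levels with lonidamine gave 826 CPM at their own mix, 864 CPM at the papain mix and 418 CPM at the PBS mix.

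For papain with lonidamine over papain Pigr was past 2-fold higher in 1 of 16 epithelial clusters and lower in 2, at a median of -0.06. Of all gene by cluster pairs 4.23% were higher and 2.1% lower. The cluster that was higher, basal epithelial-like cells led by Anln, Iqgap3 and Cdc20, had 194.1 CPM with lonidamine and 76.32 CPM with papain (1.34, 0.89 to 1.83), and 5 cells held 90.9% and 80.8% of these UMIs. The lower ones were the Lgr6 cluster and a cluster led by Pcp4, Osr1 and Il17b with 1 and 2 UMIs, whose interval took in 0. The ratio in sustentacular-like cells was -0.55 (-0.59 to -0.50) and in the cluster led by Bpifb6 -0.70 (-0.87 to -0.53), both short of 2-fold.

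Summed over the epithelium, female cells had more Pigr than male cells in every library. Over all epithelial and gland clusters female cells had 891.8, 1129 and 266.7 CPM with lonidamine, papain and PBS, and male cells 386, 496.8 and 104.3 CPM. With PBS 1838 of the 3659 female UMIs came from 48 secretory and goblet-like cells. Within PBS clusters male cells were higher in those led by Slc22a20 (31.79 against 8.819 CPM), Bpifb6 (7.715 against 3.349) and Nrcam (6.155 against 0.8335). These levels rest on few UMIs, 65 against 13, 20 against 5 and 11 against 1, and the PBS neurons were at 2.81 CPM. Female cells were higher in the sustentacular-like (307.9 against 146.2), ionocyte-like (82.48 against 44.62) and Lgr6 (288.4 against 256.6) clusters. Papain over PBS was past 2-fold higher in 8 of 10 clusters in female cells, where 6.7% of all gene by cluster pairs were, and in 5 of 6 in male cells, where 5.62% were. The papain difference was thus present within each sex. The number of mice behind each sex is not given, so sex and single animals cannot be told apart.

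Between the papain libraries the sexes differed. In female cells papain with lonidamine over papain was past 2-fold lower for Pigr in 1 of 13 clusters (2.04% of pairs), at a median of -0.16. In male cells it was lower in 5 of 7 clusters (3.85% of pairs), at a median of -1.18. Male sustentacular-like cells had 208.3 CPM with lonidamine and 772.3 CPM with papain, with 1312 and 1592 CPM in female ones. Male ionocyte-like cells had 21.83 CPM with lonidamine, on 9 UMIs in 63 cells, and 196.2 CPM with papain, with 409 and 458.1 CPM in female ones. In the cluster led by Bpifb6 male cells had 22.23 and 169.7 CPM, and in the one led by Slc22a20 107.6 and 243.5 CPM. Male cells of the Alox12e cluster did not follow, with 2225 and 1411 CPM. Pigr in neurons was at 6.965 and 13.95 CPM in male cells, on 15 and 19 UMIs, and at 13.35 and 16.67 CPM in female cells with lonidamine and papain. With 1 pooled library in each group the difference between the sexes was not tested.

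**Figure D5:**
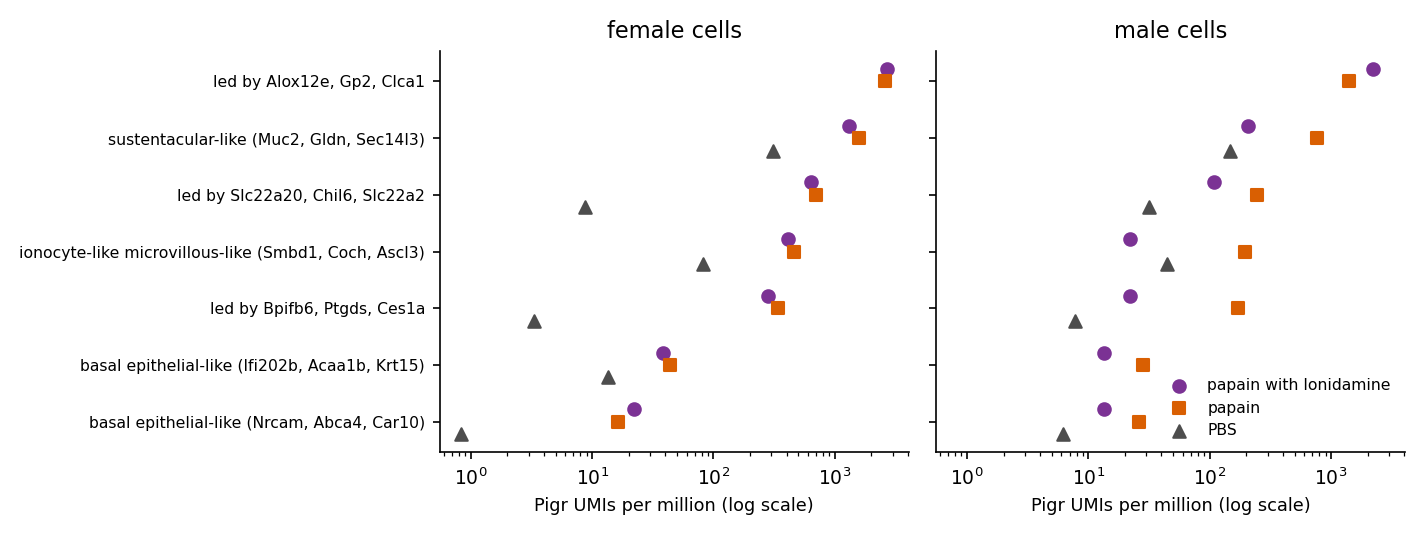
Pigr level in CPM (log axis) in the epithelial or gland clusters with at least 20 female and 20 male cells in the papain with lonidamine and papain libraries, with the PBS value where it had 20 cells. In female cells the lonidamine and papain points nearly coincide (1312 and 1592 in sustentacular-like cells), while in male cells the lonidamine points lie below papain (208.3 and 772.3) in all but the Alox12e cluster.

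The genes whose levels ran most like Pigr over 32 clusters and 96 cluster by library sums were Atp10b (Pearson r 0.80), Slc6a14 (0.79), Lrrc26 (0.79), AI463170 (0.77) and Atp6v1b1 (0.77), of 13244 genes compared. The sums share libraries, depth and free RNA, so that r is a description. Slc6a14 is an amino acid transporter of epithelia, Lrrc26 a subunit of epithelial potassium channels and Atp6v1b1 a proton pump subunit.

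The genes that act around the members were read over whole libraries, in 9 lists with 116 genes. The homing list had 4 of 12 tested genes past 2-fold higher for papain over PBS, 0 lower, and a median of 0.64. Of all genes tested 10.3% were higher and 5.94% lower, as given above. Ccl28, the epithelial ligand of Ccr10, had 23, 27.7 and 7.06 CPM with lonidamine, papain and PBS (1.97, 1.84 to 2.104). Its highest cluster was the one led by Slc22a20, at 89, 145 and 33.6 CPM. Vcam1, the endothelial adhesion molecule, had 54.5, 58.6 and 19.1 CPM, Ccr9 7.39, 6.66 and 2.91 CPM, and Cxcl13, the B cell attractant, 68, 54 and 3 UMIs. For papain with lonidamine over papain 0 of the 12 were past 2-fold. Ccr9 was among the leading genes of the plasmacytoid dendritic-like cluster, which had 47, 40 and 14 cells.

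Of 12 tested genes of class switching and B cell help, 5 were past 2-fold higher for papain over PBS and 0 lower. The shares over all genes tested were 10.3% higher and 5.94% lower. Il13 had 5.2, 5.72 and 0.364 CPM with lonidamine, papain and PBS, Il5 3.93, 5.03 and 0.704, Il10 7.2, 8.54 and 1.37, Il6 64.1, 67.3 and 15.8, and Tslp 2.14, 2.12 and 0.825. Il5 and Il13 came mainly from the group 2 innate lymphoid-like cluster (90.4% and 70.8% of UMIs) and Il10 from macrophage-like cells (74.6%). The lymphoid-like cluster had 111, 68 and 18 cells with lonidamine, papain and PBS. Within it Il5 was at 553, 983 and 676 CPM and Il13 at 561, 919 and 186 CPM. Il4, the cytokine of the switch to IgE and IgG1 in mice, had 57, 40 and 25 UMIs and was not past 2-fold for papain over PBS (0.60, -0.14 to 1.40).

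Among 19 inducers of Pigr and their receptors 2 were past 2-fold higher for papain over PBS and 0 lower, at a median of 0.46, a share near the 10.3% of all genes. They were the transcription factor genes Irf1, with 316, 288 and 122 CPM with lonidamine, papain and PBS, and Nfkb1, with 157, 157 and 66 CPM. The inducers Tnf, at 57.8, 65.1 and 32.9 CPM (0.98, 0.92 to 1.05), and Il17a, at 31.6, 28.7 and 36.7 CPM (-0.35, -0.43 to -0.28), were within 2-fold. Of 12 genes of transcytosis and apical sorting 0 were past 2-fold in either direction, with a median of 0.01. Rab3d, a GTPase of Pigr-carrying vesicles in rodents, had 61.4, 50.8 and 28.3 CPM (0.84, 0.77 to 0.92).

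Immunoglobulin receptors had 5 of 13 tested genes past 2-fold lower and 1 higher for papain over PBS, at a median of -0.65. Of all genes tested 5.94% were lower and 10.3% higher. Fcgr1, the high-affinity IgG receptor, had 3.11, 3.98 and 12.5 CPM with lonidamine, papain and PBS, Fcgr3 15.9, 13.9 and 34.4, and their shared signalling chain Fcer1g 113, 123 and 253. Fcer1a and Ms4a2, chains of the high-affinity IgE receptor of mast cells and basophils, had 42, 20 and 72 UMIs and 37, 25 and 59 UMIs, and 96.2% of the Fcer1a UMIs lay in the neutrophil precursor-like cluster. Fcamr, a receptor for IgA and IgM, was the higher one, at 30, 86 and 40 UMIs. Monocyte-like cells, which carry Fc receptors, were 154, 106 and 432 in these libraries, and their part in the lower sums was not tested.

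The plasma cell list had 2 of 18 genes past 2-fold higher for papain over PBS, 0 lower, and a median of 0.24, a share also near the 10.3% of all genes. They were Ell2, an elongation factor of antibody transcripts, at 77.6, 81.9 and 33.9 CPM with lonidamine, papain and PBS, and Pou2af1, a coactivator of immunoglobulin genes, at 2.5, 2.07 and 0.91 CPM. Of 15 B cell genes 3 were higher, Pax5 and Spib among them, and 0 lower, at a median of 0.01. Pax5 had 145, 139 and 43 UMIs and Ms4a1 215, 257 and 470. Of 5 B cell precursor genes 2 were higher, Vpreb1 with 110, 79 and 29 UMIs and Dntt with 115, 96 and 14. Dntt was also a leading gene of the plasmacytoid dendritic-like cluster. Of 4 other constant genes Ighg2b was higher and Iglc1 lower, each carried by the single barcodes described above.

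In the comparison of papain with lonidamine over papain, 4 genes of the 9 lists were past 2-fold. Fcer1a was higher (1.003, 0.22 to 1.87), and Fcamr (-1.55), Ighg2b (-4.30) and Iglc1 (-4.52) were lower. In 7 of the 9 lists 0 genes were past 2-fold in this comparison.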

How the data were processed

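The deposited values are raw UMI counts per gene and barcode of 3 libraries made with a droplet 3′ kit from tissue digested with collagenases and Dispase, with called cells only; per the file headers the counts were made with Cell Ranger 7.1.0, whereas the submitters' processing notes name version 2.1.1 and the build GRCm39. Each sample was 1 group, by its title and treatment label, and each group was 1 library. Strand and intron settings of the counting are not given in the sources used here, so that reads of overlapping genes and of near-identical immunoglobulin genes may be split.

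Kept cells had at least 500 UMIs and 200 genes, at most 20% mitochondrial UMIs and no doublet call by Scrublet. They were clustered over the 3 libraries with scanpy 1.11.5 and leidenalg 0.10.2 (Python 3.11.15), on 2000 variable genes, 40 principal components, 20 neighbours and resolution 1. The 393 immunoglobulin genes and Jchain, Mzb1 and Pigr, 396 in all, were left out of the clustering. A cluster was named from at least 3 markers of a list, each 3-fold higher than elsewhere and in 10% of its cells; all others go by their leading genes. A cell with Xist and no Y-linked UMI was called female, and the reverse male.

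Level ratios are of CPM with 0.5 counts added, with exact conditional binomial 95% intervals, and shares have exact Clopper-Pearson 95% intervals; both cover counting error only. A count of 0 was given a limit of 3 counts. A gene was called past 2-fold, with at least 20 UMIs in the 2 libraries. No test was made, since each group has 1 library. The scripts were tested on simulated data. edgeR 4.0.16 (R 4.3.3) gave TMM factors as another scaling.

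All members were named. Of each list, genes past 2-fold whose interval left out 0 were named, up to 5 with the most UMIs, and genes that a member's result stands beside. Genes like Pigr were the 5 with the highest r of log2 (CPM + 1), and genes of the Jchain cells the 10 with the highest ratio among those of 200 UMIs. The members and lists were chosen with earlier results of these data known. Chosen after seeing the data were the Jchain rule without Mzb1, the results without these cells or without those outside the B-like cluster, the free RNA level without cells of 5% immunoglobulin, the cell mix, the shares of pairs by sex and TMM for clusters. Motifs were searched in RefSeq promoters of GRCm38.p6, and coordinates of the 2 builds were not mixed. Values of some single list genes are not reported here.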

Additional observations from a re-analysis of the deposited data

Results flagged for a closer look

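Pigr in the basal epithelial-like cluster led by Lgr6 had the opposite sign to most other epithelial clusters, at -1.15 on the log2 scale for papain over PBS. For papain with lonidamine over papain the same cluster was at -1.31. In the basal epithelial-like cluster led by Anln, on 165 and 52 UMIs, papain with lonidamine over papain was at 1.34, against a median of -0.06 over the 16 clusters. In ionocyte-like microvillous cells papain with lonidamine over PBS was at 2.31 in female cells and at -0.96 in male cells, where the male value rests on 9 UMIs with lonidamine. None of these differences between clusters or sexes was tested, because each group has 1 library.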

How the results depend on the processing

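No paired analysis was possible because each group was 1 pooled library, and for the same reason no replicate could be left out. Across the settings, 106 values of the comparisons stayed within their limit and 28 moved, and of the other values 240 stayed, 86 moved and 1 changed sign. Without the PBS barcode that met the plasma cell rule 3 members were past 2-fold for papain over PBS and 5 for papain with lonidamine over PBS. With no minimum of UMIs these counts were 3 and 5, and 1 for papain with lonidamine over papain, where 2 were past 2-fold without the cells above 1% Jchain. In PBS 0 cells met the plasma cell rule with 3 Mzb1 UMIs or among female cells, and 0 female PBS cells and 0 male papain cells were above 1% Jchain. The share with Igha was 100% by the rule as written, with 1 Mzb1 UMI, and within the B-like cluster. Over all cells outside the B-like cluster, in place of neurons, free RNA with lonidamine read 33.1 CPM for Igha, 39.3 for Igkc and 5.72 for Jchain, and Igkc read 21.5 with papain and 8.55 with PBS. Without cells of 5% immunoglobulin Igkc was at 19.7, 21.5 and 6.31 CPM with lonidamine, papain and PBS, where 839 of the 1773 papain UMIs came from 1 barcode at 4.85% immunoglobulin. The causes of these moves were not tested beyond the barcodes left out.

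For papain over PBS 76.9% to 87.5% of the epithelial clusters had Pigr past 2-fold higher over all settings, with medians of 2.19 to 2.65. For papain with lonidamine over papain 0% were higher at resolution 2, with the members left in, in female cells, in male cells and in thinned cells, against 6.25%. The ionocyte-like ratio of papain with lonidamine over PBS was -0.96 in male cells, against 2.29 in all. Of the gene lists 0 genes were higher for papain with lonidamine over papain by TMM and in kept cells, against 1, Fcer1a. No scaling moved the median of all genes by over 0.1. Depth limits Ighg1, Ighe and Mzb1, with 6 UMIs or fewer in a library, and the shares of the cells above 1% Jchain, which rest on 5 to 16 cells.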
